A study of Mus musculus with 34 samples.

Results

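The 40 genes described here are Myc and 39 genes whose products build ribosomes or sit in the nucleolus. They were chosen by gene symbol, with earlier results of these data known, and all 40 were found among the 14107 genes of the count table. RNA was sequenced from 3 cell lines of mouse colorectal cancer (NaJa-D, NaJa-F, NaJa-G) that share the genotype VillinCreERT2::BrafV600E/+::Trp53R172H::APCdel on a C57BL/6N background, so that DMSO and drug samples alike carry the oncogenic Braf allele, mutant Trp53 and the Apc deletion. Each line was kept with 0.5 µM encorafenib, an inhibitor of BRAF carrying the V600E change, or with the solvent DMSO for 1 day or for 5 days, and in the longer arm fresh drug or DMSO was given on day 2 and day 4. Cells of both arms were plated at the same time. The 12 groups hold 34 libraries, 3 in each of 10 groups and 2 in the day 5 groups of NaJa-F with encorafenib and NaJa-G with DMSO, and the total count of a library lay between 46007050 and 80121299.

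Each line came from the peritoneal lavage of a single recipient mouse. The recipients had received colon organoids from the same donor line, recombined in culture before transplantation. A difference between lines is thus a difference between isolates. The recombination was driven by a Villin promoter, which is active in intestinal epithelium. The labels do not say that replicates were separate cultures, and the p-values therefore measure the spread between these libraries, which may be technical. Replicate 3 of NaJa-D DMSO day 1 lists NaJa-G as its cell line in another label. The title decided its group, and results that rest on it are given with and without it. Epcam, an epithelial adhesion molecule, stood at 985 to 1177 CPM (a gene's count scaled to a common library size) in all 3 libraries of this group and at 86.1 to 93.4 CPM in NaJa-G DMSO day 1, and Col1a1, a collagen of fibroblasts, at 0.95 to 1.17 CPM against 35.3 to 50.9 CPM. All 10 intestinal epithelial markers examined were in the table. Their summed level lay between 2613 CPM in a NaJa-G DMSO day 5 library and 9120.2 CPM in a NaJa-D encorafenib day 1 library. Krt8, Krt18, Krt19 and Cdh1 made up most of this sum. Epcam was also high in NaJa-D, as given above, and stood at 488 to 503 CPM in NaJa-F DMSO day 1. Krt20, Vil1, Cdx2, Cdh17 and Lgals4 did not exceed 111.2 CPM in any library. In NaJa-G DMSO day 1, Krt18 stood at 1191 to 1531 CPM and Cdx2 at 7.86 to 9.88 CPM. Lgals4 stood at 0.99 to 1.46 CPM and Vil1 at 0.44 to 0.67 CPM there. Of 6 leukocyte and 4 endothelial markers, 1 each was in the table, and the highest summed level in any library was 4.30 CPM and 1.36 CPM. Ptprc, Cd3e, Pecam1 and Cdh5 were not analysed here.

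MYC is a transcription factor that pairs with MAX, binds E-box sequences and raises transcription of growth genes, among them those for making ribosomes. RNA polymerase I transcribes the long precursor of ribosomal RNA in the nucleolus. Small nucleolar ribonucleoproteins (snoRNPs) then modify it, the box C/D kind by methylating ribose and the box H/ACA kind by turning uridine into pseudouridine, while the small subunit processome and the large subunit assembly factors fold and cut it around ribosomal proteins. ERK, the kinase at the end of the RAF pathway, is known to stabilise the MYC protein and to activate the polymerase I factor encoded by Rrn3. The libraries measure messenger RNA and carry no value for MYC protein or for the ribosomal RNA precursor. In bulk RNA, fewer cells of a kind and less RNA per cell cannot be told apart.

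The E-boxes of these promoters are shown because MYC binds this motif and most of the genes moved together below. The letters CACGTG, which read the same on both strands, were searched in RefSeq promoter windows (GRCm38.p6) that run from 250 bases before to 50 bases after the annotated start. Windows were given for 34 of the 40 genes, and 10 of them (29.4%) hold the motif, against 7.15% of all 32851 windows and 11.6% of the 10225 genes of the count table that have a window. The remaining genes, Myc, Fbl, Rrp12, Bop1, Rrs1 and Npm1, had no window. A match describes these letters and not a bound site. Each line gives up to 12 bases on either side, 5′ to 3′ on the strand of the gene, with the E-box in capitals.
Nop2 (chr6:125131811-125131840, plus strand): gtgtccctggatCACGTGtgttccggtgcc
Grwd1 (chr7:45830740-45830767, minus strand): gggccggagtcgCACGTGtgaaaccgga
Utp4 (chr8:106893643-106893672, plus strand): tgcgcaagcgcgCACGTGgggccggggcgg
Ltv1 (chr10:13193092-13193121, minus strand): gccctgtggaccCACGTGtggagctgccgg
Utp20 (chr10:88826765-88826789, minus strand): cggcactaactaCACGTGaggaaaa
Pes1 (chr11:3963965-3963994, plus strand): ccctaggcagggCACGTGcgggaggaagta
Mybbp1a (chr11:72441355-72441376, plus strand): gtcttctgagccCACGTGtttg
Tsr1 (chr11:74898092-74898121, plus strand): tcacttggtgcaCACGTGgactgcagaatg
Rrn3 distal (chr16:13780472-13780501, plus strand): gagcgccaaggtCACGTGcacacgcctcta
Rrn3 proximal (chr16:13780639-13780668, plus strand): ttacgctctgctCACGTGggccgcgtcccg
Wdr43 (chr17:71616220-71616249, plus strand): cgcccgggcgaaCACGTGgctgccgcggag
In Nop2 and Rrn3 the motif lay before the annotated start, with its first base at position -60 in Nop2 and at -215 and -48 in Rrn3. In the other 8 genes it lay after the start, with its first base between position 3 in Pes1 and 41 in Mybbp1a.

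Most of these genes were lower with encorafenib in all 3 lines, and their median change was largest in NaJa-G. With limma at an adjusted p below 0.01, 36 of the 40 genes fell in NaJa-D on day 1 (background over all genes, 21.2% lower) and 30 on day 5 (14.7%). In NaJa-F 33 fell on day 1 (12%) and 17 on day 5 (8.50%). In NaJa-G all 40 fell on day 1 (28.7%) and 37 on day 5 (24.7%). None of the 40 rose in any of these 6 comparisons by limma, edgeR or DESeq2 (0 in limma at an unadjusted p below 0.05), in which the share of all genes that rose was 23.7%, 18.3%, 17.5%, 9.70%, 35.3% and 28.5% in the same order.

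The median log2 fold change of the 40 genes on day 1 and day 5 was -0.48 and -0.33 for NaJa-D, -0.30 and -0.26 for NaJa-F and -1.19 and -0.59 for NaJa-G, while the median over all genes lay between -0.017 and 0.044. At the median, a gene of the set in NaJa-G on day 1 was thus 56.0% lower with encorafenib. Without the library with the conflicting label, 36 genes fell in NaJa-D on day 1, with a median of -0.51. NaJa-G had a more negative log2 fold change than NaJa-D for all 40 genes on day 1 and for 38 on day 5, with the same counts against NaJa-F. This order was not counted over all genes. The median difference over all genes was 0.033 against NaJa-D and 0.070 against NaJa-F on day 1, and 0.0018 and 0.016 on day 5. Leaving out NaJa-F encorafenib day 5 replicate 2, which leaves 1 library in that group, lowered the count in NaJa-F on day 5 from 17 to 10. Each of the 6 comparisons has DMSO libraries of its own.

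The 5 largest falls in NaJa-D were those of Dkc1 (-0.69), Polr1b (-0.69), Nhp2 (-0.67), Mybbp1a (-0.66) and Pa2g4 (-0.64) on day 1 and of Dkc1 (-0.67), Polr1b (-0.60), Utp20 (-0.55), Ncl (-0.55) and Polr1a (-0.53) on day 5, as log2 fold changes. In NaJa-F they were those of Utp4 (-0.53), Nop56 (-0.52), Ppan (-0.50), Nop2 (-0.46) and Mybbp1a (-0.43) on day 1 and of Utp4 (-0.54), Nop2 (-0.43), Polr1a (-0.42), Fbl (-0.39) and Mybbp1a (-0.35) on day 5. NaJa-G had Polr1b (-1.75), Dkc1 (-1.59), Nolc1 (-1.57), Nop56 (-1.56) and Ppan (-1.56) on day 1 and Myc (-1.05), Polr1b (-1.01), Utp4 (-0.95), Gar1 (-0.89) and Dkc1 (-0.87) on day 5. Myc was among the 5 in NaJa-G on day 5 and in no other comparison. In all, 16 of the 40 genes fell in each of the 6 comparisons. The share of all genes that did so was not counted, and it cannot exceed the 8.50% that fell in NaJa-F on day 5.

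**Figure D1:**
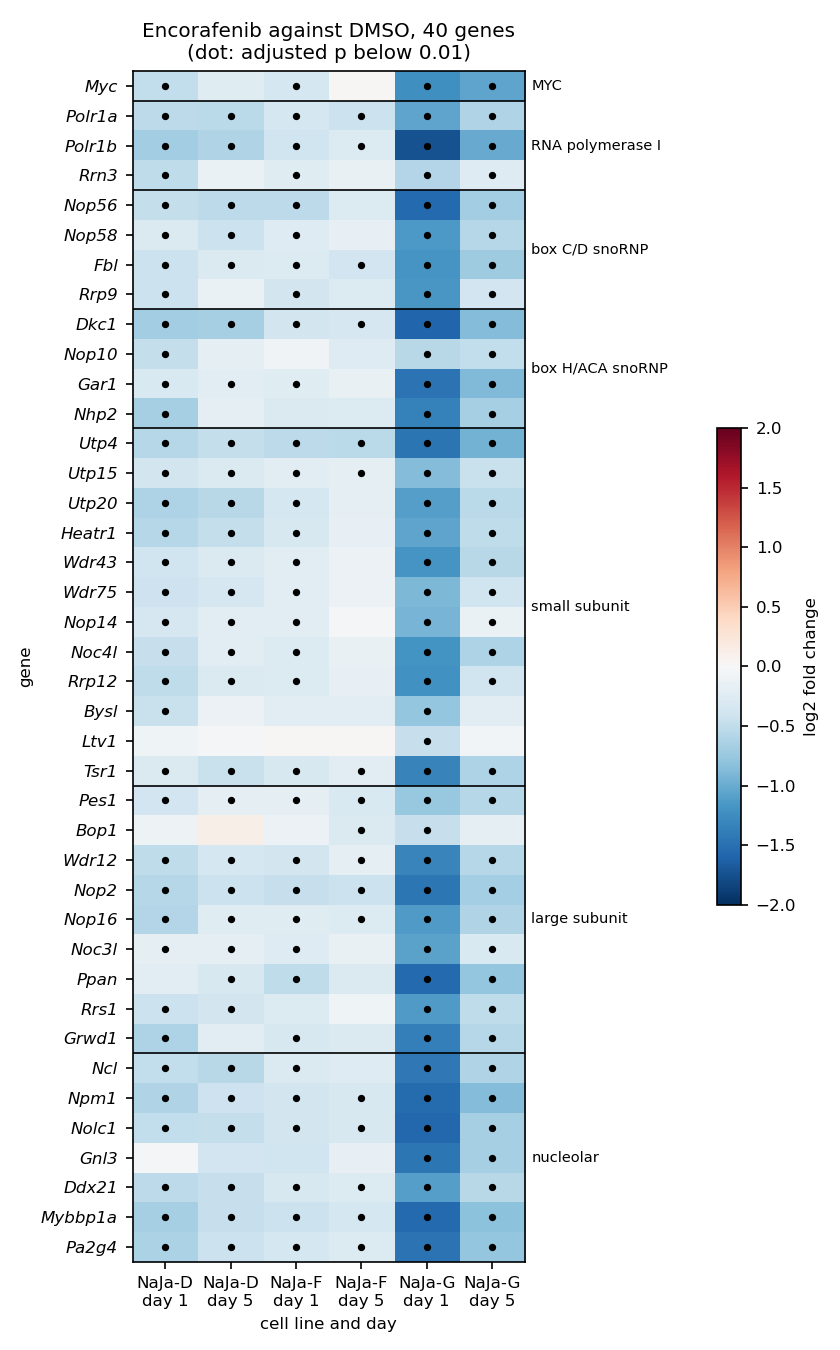
Log2 fold change of encorafenib against DMSO for the 40 genes (rows, grouped by role) in each line and day (columns), with blue for lower and red for higher levels and a dot where the adjusted p is below 0.01. All 40 genes carry a dot in NaJa-G on day 1 and 17 do in NaJa-F on day 5.

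The same pattern was present in the share of a library's counts, which is scaled by the library total alone. This share sums all 40 genes, and Ncl, Npm1 and Mybbp1a weighed most in it. In NaJa-G the 40 genes took up 1.08% to 1.10% of a library's counts in DMSO on day 1 and 0.415% to 0.423% with encorafenib. The day 5 shares in NaJa-G were 0.760% to 0.791% in DMSO and 0.470% to 0.481% with the drug. In NaJa-D they went from 0.841% to 0.905% in DMSO to 0.643% to 0.650% with encorafenib on day 1, and from 0.749% to 0.809% to 0.572% to 0.594% on day 5. In NaJa-F the DMSO libraries held 0.975% to 1.01% on day 1 and 0.890% to 0.900% on day 5, against 0.753% to 0.790% and 0.726% to 0.778% with encorafenib. The ranges of DMSO and encorafenib libraries did not overlap in any line or day.

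Myc did not fall in every line and day. In NaJa-D on day 1 it stood at 243, 256 and 253 CPM in the DMSO libraries and 172, 174 and 192 CPM with encorafenib, without overlap, and it fell by 0.49 ± 0.077 on the log2 scale (log2 fold change ± SE from limma, adjusted p = 5.03e-06). NaJa-F gave 214, 220.0 and 226 CPM in DMSO and 174, 170.5 and 173 CPM with encorafenib on day 1, a change of -0.35 ± 0.078 (adjusted p = 0.000585). In NaJa-G the day 1 libraries held 192, 178 and 176 CPM in DMSO and 79.0, 76.0 and 78.0 CPM with encorafenib, a change of -1.23 ± 0.077 (adjusted p = 2.42e-14).

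After 5 days Myc was still lower in NaJa-G, where the 2 DMSO libraries held 140.4 and 182 CPM and the encorafenib libraries 74.9, 79.5 and 76.5 CPM (-1.05 ± 0.085, adjusted p = 1.51e-11). The NaJa-D libraries of day 5 held 207, 178 and 169 CPM in DMSO and 154, 159 and 155 CPM with encorafenib, which do not overlap, but the change of -0.24 ± 0.076 missed the threshold in limma (adjusted p = 0.0114) and passed it in DESeq2 (adjusted p = 0.00918). In NaJa-F the day 5 levels overlapped, at 192, 188 and 175 CPM in DMSO and 169 and 209 CPM with encorafenib, and the change was 0.024 ± 0.086 (95% interval -0.15 to 0.20, adjusted p = 0.874). Without the second NaJa-F encorafenib library of day 5 that value was -0.15 (adjusted p = 0.306).

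**Figure D2:**
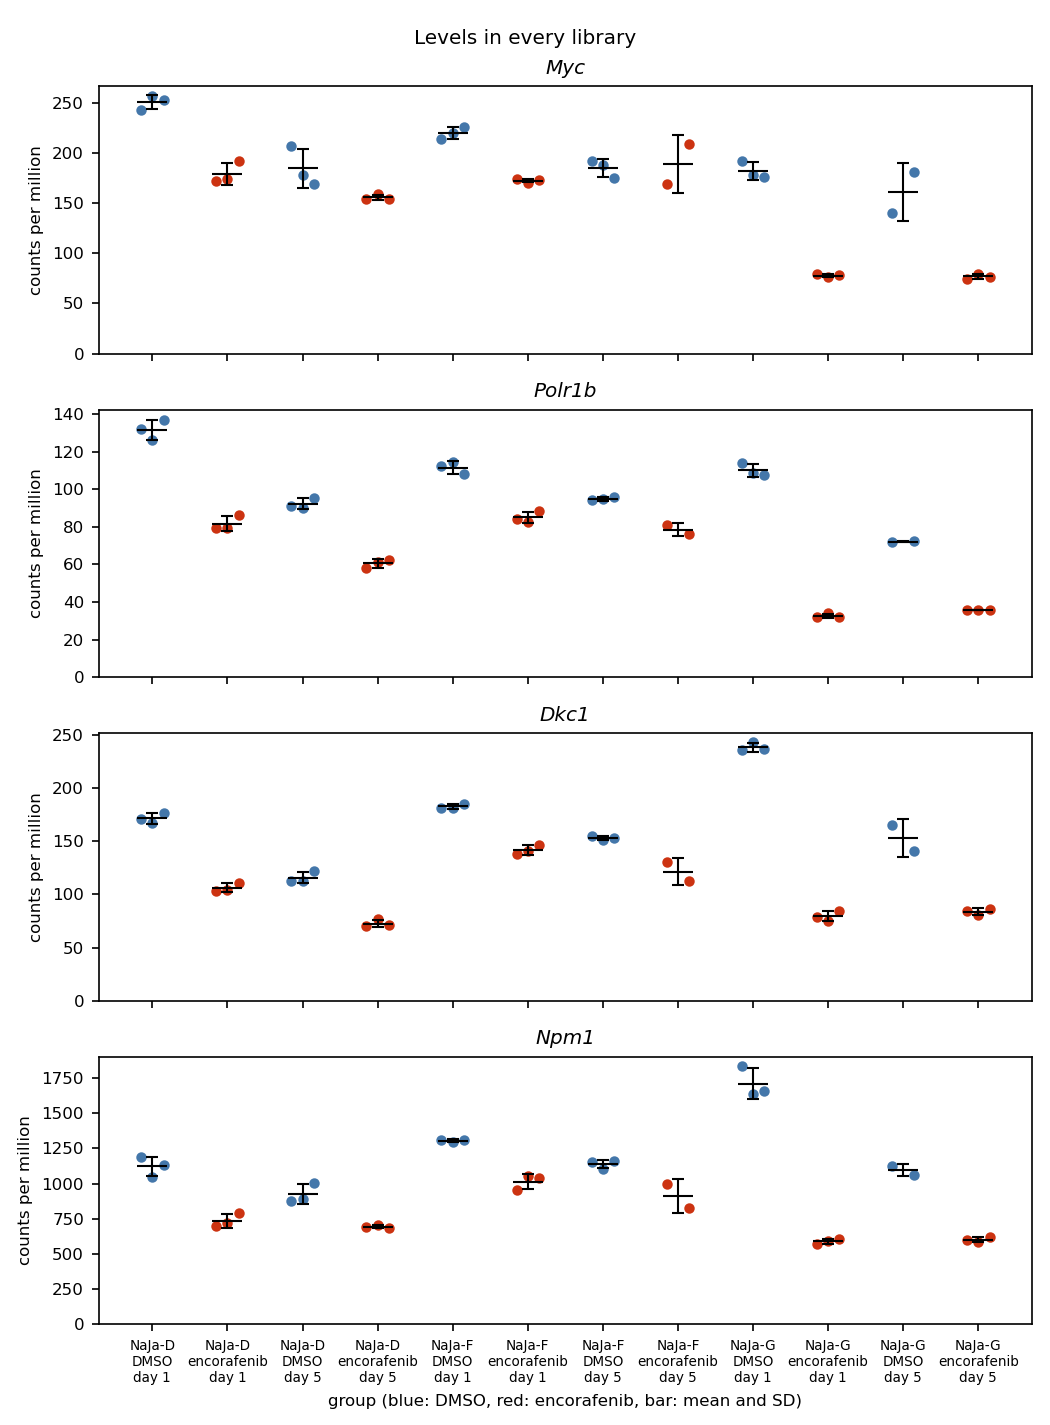
Level of Myc, Polr1b, Dkc1 and Npm1 in CPM (vertical axis, from 0) in every library of the 12 groups, with a horizontal bar for the mean and an error bar of 1 SD, blue for DMSO and red for encorafenib. The 6 NaJa-G encorafenib libraries hold Myc at 74.9 to 79.5 CPM, below every other library.

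Polr1a, Polr1b and Rrn3, the polymerase I genes among the 40, fell in every line on day 1. Polr1b, which encodes the second largest subunit of the enzyme, had the largest fall of all 40 genes in NaJa-G on day 1, from 114, 109 and 108 CPM in DMSO to 32.29, 33.97 and 31.96 CPM (-1.75 ± 0.046, adjusted p = 1.19e-22). On day 5 the DMSO libraries of NaJa-G held 71.9 and 72.3 CPM and the encorafenib libraries 36.0, 35.8 and 35.9 CPM (-1.01 ± 0.050). Polr1b was thus lower in DMSO on day 5 than on day 1, while the encorafenib libraries of both days lay close together. In NaJa-D it changed by -0.69 on day 1 and -0.60 on day 5, and in NaJa-F by -0.39 and -0.27, each past the threshold. Polr1a, the largest subunit, fell in all 6 comparisons as well, by 0.35 in NaJa-F on day 1 up to 1.05 in NaJa-G on day 1. Rrn3, the initiation factor that recruits the polymerase to ribosomal DNA, changed least of the 3 genes in NaJa-G, by -0.58 ± 0.062 on day 1. In the day 5 libraries it changed by -0.13 in NaJa-D and -0.15 in NaJa-F, neither past the threshold.

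The core proteins of the box C/D snoRNPs, Nop56, Nop58 and the methyltransferase gene Fbl, together with Rrp9, which binds U3 snoRNA, all fell on day 1 in each line. Fbl, encoding fibrillarin, went from 173, 144 and 146 CPM to 69.7, 65.5 and 67.8 CPM in NaJa-G on day 1 (-1.18 ± 0.066) and passed the threshold in all 6 comparisons, with -0.39 in NaJa-F on day 5. Nop56 had the largest fall of the 4 in NaJa-G on day 1, from 338, 403 and 409 CPM to 125, 133 and 131 CPM (-1.56 ± 0.086), and Nop58 and Rrp9 changed by -1.15 and -1.16 there. In NaJa-F on day 5 Fbl was the only one of the 4 past the threshold, and Nop56, Nop58 and Rrp9 stood at -0.27, -0.16 and -0.27.

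Dkc1, which encodes the pseudouridine synthase dyskerin of the box H/ACA particles, fell in all 6 comparisons. Its level in NaJa-G went from 235, 243 and 236 CPM in DMSO to 78.8, 74.8 and 84.3 CPM with encorafenib on day 1 (-1.59 ± 0.059). It also led the falls of the 40 genes in NaJa-D, level with Polr1b on day 1, from 171, 167 and 177 CPM to 103, 104 and 111 CPM on day 1 (-0.69 ± 0.057) and from 113, 112 and 122 CPM to 69.9, 76.4 and 71.2 CPM on day 5 (-0.67 ± 0.057). In none of these pairs did the groups overlap. The other 3 particle proteins differed in NaJa-G on day 1, where Gar1 and Nhp2 fell by 1.48 and 1.35 and Nop10 by 0.56. In NaJa-F on day 5 none of Gar1, Nhp2 and Nop10 passed the threshold, at -0.15, -0.28 and -0.25.

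All 12 small subunit genes fell in NaJa-G on day 1, with a median of -1.08, and 11, 10, 10, 3 and 10 of them in NaJa-D day 1, NaJa-D day 5, NaJa-F day 1, NaJa-F day 5 and NaJa-G day 5. Utp4, a protein of the complex that starts processome assembly, had the largest change of the 40 genes in NaJa-F on both days, from 132, 132 and 130.2 CPM to 91.3, 88.6 and 92.8 CPM on day 1 (-0.53 ± 0.047) and from 113, 110.4 and 112 CPM to 79.0 and 74.7 CPM on day 5 (-0.54 ± 0.052). In NaJa-G Utp4 fell by 1.46 on day 1 and 0.95 on day 5. Ltv1, an export and maturation factor, passed the threshold in NaJa-G on day 1 only (-0.47 ± 0.059), and its other 5 changes lay between -0.088 and 0.029. Bysl, encoding bystin, passed it in 2 comparisons, NaJa-D day 1 (-0.45) and NaJa-G day 1 (-0.77), and 361 of its exonic bases overlap Ccnd3, with strand use of the counting not stated. Tsr1, a GTPase-like factor of the same late steps, fell in all 6 comparisons, by 1.33 in NaJa-G on day 1, though 1240 of its exonic bases overlap the antisense gene Srr.

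Among the 9 large subunit genes, Nop2, encoding an RNA methyltransferase, fell in all 6 comparisons, from 297, 279 and 292 CPM to 107, 106 and 105 CPM in NaJa-G on day 1 (-1.45 ± 0.055) and from 173, 169.9 and 172 CPM to 126 and 129.5 CPM in NaJa-F on day 5 (-0.43 ± 0.060). Pes1, Bop1 and Wdr12 encode the 3 partners of the PeBoW complex, and their changes in NaJa-G on day 1 were -0.76, -0.47 and -1.31, all past the threshold. Pes1 and Wdr12 also fell in the other 5 comparisons. Bop1 passed the threshold in NaJa-G on day 1 and NaJa-F on day 5 (-0.29 ± 0.076), and on day 5 in NaJa-D it stood at 130.2, 131 and 136 CPM in DMSO and 143, 134 and 156 CPM with encorafenib, an overlap in range and a change of 0.12 ± 0.069 (adjusted p = 0.146). This was the largest positive value of any of the 40 genes in the 6 comparisons. Ppan fell by 1.56 in NaJa-G on day 1, and Nop16, Noc3l, Rrs1 and Grwd1 by 1.07 to 1.36 there.

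The nucleolar genes showed the deepest median in NaJa-G on day 1, -1.48, and all 7 fell there (28.7% of all genes fell). Npm1, encoding the nucleolar chaperone nucleophosmin, went from 1837, 1634 and 1659 CPM to 572, 589 and 608 CPM (-1.53 ± 0.067, adjusted p = 7.32e-18), and Ncl, encoding nucleolin, from 2236, 2013 and 2032 CPM to 767, 774 and 777 CPM (-1.44 ± 0.070). Npm1 has many processed copies in the mouse genome, and how reads matching several places were counted is not given. Nolc1, a scaffold protein of snoRNP assembly, fell by 1.57 and Mybbp1a, a nucleolar binding partner of MYB, by 1.56. Npm1, Nolc1, Ddx21, Mybbp1a and Pa2g4 passed the threshold in all 6 comparisons. Gnl3, encoding nucleostemin, passed it only in NaJa-G, by -1.44 ± 0.12 on day 1 and -0.66 ± 0.14 on day 5.

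Gnl3, Ppan and Nop56 varied between libraries of the same group more than most of the set. Their pooled SDs on the log2 scale within groups were 0.16, 0.13 and 0.11, the first, the second and the sixth largest of the 40, against a median of 0.070. In NaJa-D encorafenib day 1, replicate 3 was low in each of them, with Gnl3 at 69.5, 69.5 and 47.7 CPM, Ppan at 96.3, 97.6 and 76.0 CPM and Nop56 at 374, 388 and 301 CPM. NaJa-F DMSO day 1 replicate 3 was high in each, with Gnl3 at 68.6, 67.8 and 92.6 CPM, Ppan at 85.6, 86.4 and 106 CPM and Nop56 at 324, 332 and 401 CPM. NaJa-G DMSO day 1 replicate 1 was low in each, with Gnl3 at 85.7, 120.1 and 121 CPM. Rrs1, Rrp9 and Nhp2, the third to the fifth in spread, were high in that library, with Nhp2 at 202, 159 and 160 CPM. They were also high in replicate 3 of NaJa-D encorafenib day 1, with Nhp2 at 78.2, 83.9 and 109.8 CPM and Rrs1 at 58.2, 55.3 and 72.5 CPM. Small nucleolar RNA genes lie inside all 3 (5 in Nop56, 3 in Gnl3 and 2 in Ppan), but they also lie inside Nop58, Ncl, Dkc1, Wdr43 and Tsr1, and their part in the spread was not tested. These 3 genes were called in 2, 4 and 5 of the 6 comparisons.

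Whether the lines answered the drug differently was tested as the difference of their log2 fold changes. On day 1 the fall was larger in NaJa-G than in NaJa-D for 37 of the 40 genes (background, 16.2% of all genes with a lower response), with a median difference of -0.75, and larger than in NaJa-F for all 40 (14.3%, median -0.91). Gnl3 (-1.40 ± 0.18), Ppan (-1.32 ± 0.14), Gar1 (-1.17 ± 0.090), Nop56 (-1.09 ± 0.12) and Nolc1 (-1.08 ± 0.058) differed most between NaJa-G and NaJa-D, and Polr1b (-1.36 ± 0.063), Gar1, Dkc1, Nolc1 and Npm1 between NaJa-G and NaJa-F. Rrn3 (-0.071, 95% interval -0.25 to 0.11), Nop10 (-0.086, -0.30 to 0.13) and Bysl (-0.32, -0.55 to -0.090) did not pass the threshold between NaJa-G and NaJa-D. Without the library with the conflicting label the difference was called for 36 genes between NaJa-G and NaJa-D. The differences between pairs of lines share libraries and are not independent of each other.

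On day 5 fewer genes differed between the lines, and whether the gap itself changed between days was not tested. The response of NaJa-G was lower than that of NaJa-D for 12 genes (background, 7.82%, median difference -0.23) and lower than that of NaJa-F for 17 (7.95%, median -0.35). Myc had the largest difference in both, -0.81 ± 0.11 against NaJa-D (adjusted p = 2.41e-06) and -1.08 ± 0.12 against NaJa-F (adjusted p = 4.62e-08). Its day 1 differences were -0.74 ± 0.11 and -0.88 ± 0.11. Gar1 followed Myc on day 5, at -0.66 ± 0.094 and -0.74 ± 0.094.

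Few of these genes passed the threshold for a different response in NaJa-F and NaJa-D. On day 1 the difference passed the threshold for 3 genes (background, 8.79% in either direction), Nop10, Dkc1 and Polr1b, at 0.41, 0.33 and 0.30, all with the smaller fall in NaJa-F. On day 5 it passed for 3 genes (8.85%), Dkc1 (0.33), Polr1b (0.33) and, in the other direction, Bop1 (-0.41). The medians over the 40 genes were 0.17 and 0.11. In either direction both shares are below the background. Higher responses alone were called for 633 of all 14107 genes on day 1 and 575 on day 5. The 3 and 2 genes named above with a higher response are not below these shares. On day 5 a lower response was called for 673 of all genes, against Bop1 alone among the 40. The counts among the 40 genes depend on single libraries, from 1 to 17 on day 1 with 1 library left out. The 17 came without NaJa-D encorafenib day 1 replicate 3. On day 5 the counts ran from 1 to 3 where at least 2 libraries stayed in each group. Leaving 1 library in NaJa-F encorafenib day 5 gave a median of 0.11 or 0.13. Without the library with the conflicting label 2 genes were called on day 1. In limma at an unadjusted p below 0.05, 22 genes had a higher response in NaJa-F than in NaJa-D on day 1 and 0 a lower one. On day 5 these numbers were 13 and 1. How many of all genes had an unadjusted p below 0.05 was not counted, so these numbers have no background share.

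**Figure D3:**
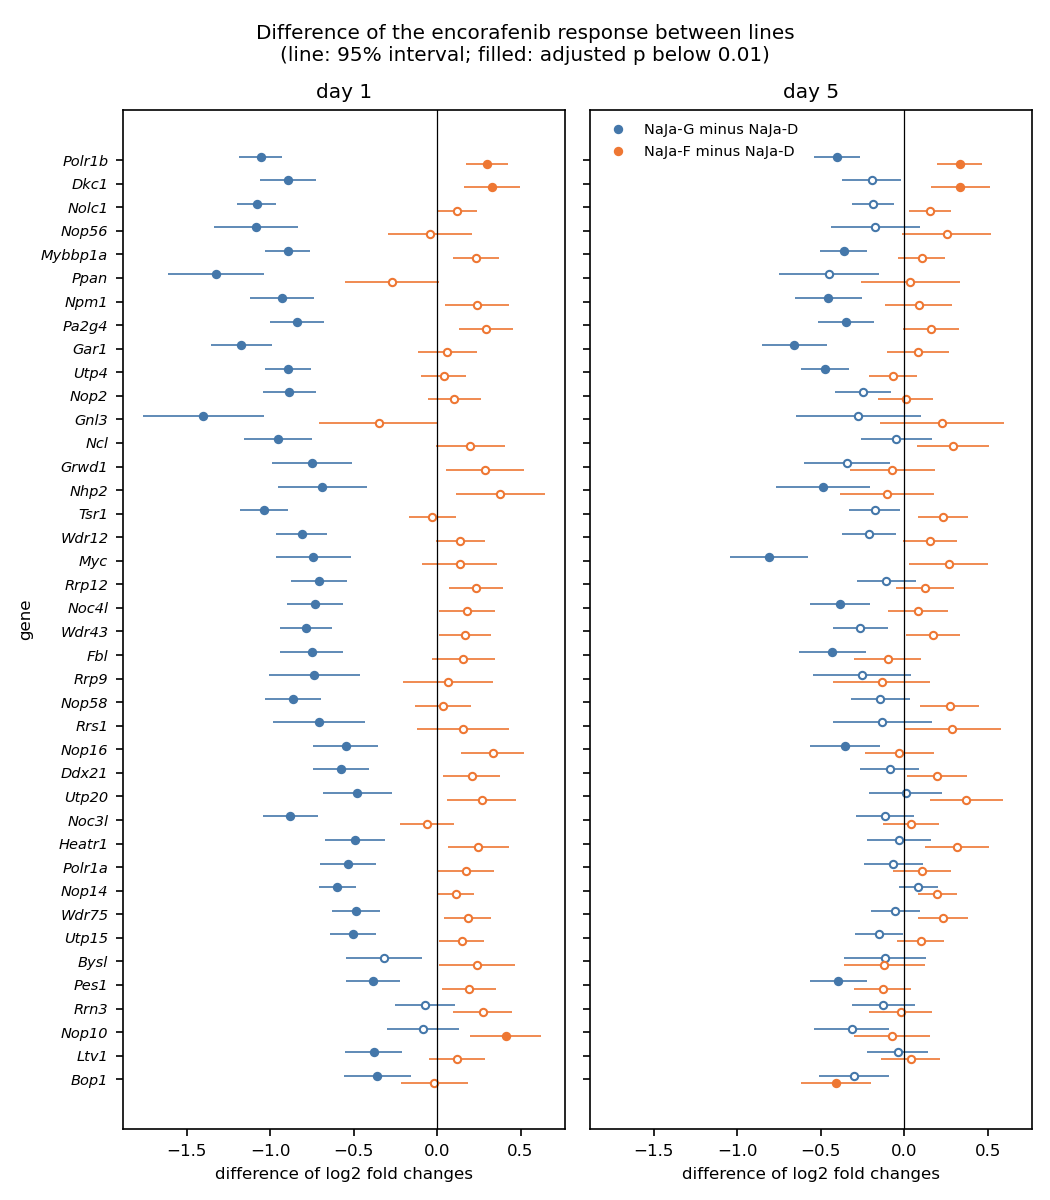
Difference of the log2 fold changes to encorafenib (horizontal axis) between NaJa-G and NaJa-D (blue) and between NaJa-F and NaJa-D (orange) for the 40 genes (vertical axis, ordered by the change in NaJa-G on day 1), with lines for 95% intervals and filled points for an adjusted p below 0.01. On day 1 the blue points of 37 genes are filled and lie below 0, and on day 5 those of 12 are.

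The response to encorafenib was smaller on day 5 than on day 1 in NaJa-G. Between day 1 and day 5 the log2 fold change became less negative for 36 of the 40 genes in that line (background, 15.5% of all genes with a higher response), with a median shift of 0.64. Nolc1 (0.92 ± 0.062), Nop56 (0.86 ± 0.13), Ncl (0.84 ± 0.10), Rrp12 (0.81 ± 0.087) and Grwd1 (0.79 ± 0.13) shifted most. Myc (0.17 ± 0.11, adjusted p = 0.222), Pes1, Bop1 and Nop10 did not pass the threshold. In NaJa-D 2 genes were called, Nhp2 at 0.49 ± 0.13 and Rrn3 at 0.38 ± 0.087. Of all 14107 genes, 7.29% were called there in either direction and 389 with a higher response. In NaJa-F none of the 40 was called (background, 5.88% in either direction). There 3 of the 40 passed in limma at an unadjusted p below 0.05, 1 by DESeq2, which was Nop14, and 0 by edgeR. Leaving out 1 library moved the NaJa-D count to between 0 and 11, with 11 without NaJa-D encorafenib day 1 replicate 3 and 0 without the library with the conflicting label, without NaJa-D DMSO day 5 replicate 1 and without NaJa-D encorafenib day 1 replicate 1 or 2.

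The DMSO levels moved between the days. In DMSO, 36 genes were lower on day 5 than on day 1 in NaJa-G (background, 16.8%, median -0.54), 30 in NaJa-D (15.3%, median -0.31) and 20 in NaJa-F (7.01%, median -0.22), and none was called higher by limma. Gnl3 stood at 0.40 ± 0.12 in NaJa-D (adjusted p = 0.0102), the only gene of the 40 that was higher at an unadjusted p below 0.05, and edgeR and DESeq2 called it higher. Scaling by library size alone left 19 genes lower and 1 higher (Gnl3) in NaJa-D, where it moved the all-gene median to 0.18, 13 lower in NaJa-F and 35 lower in NaJa-G. Without the library with the conflicting label, 29 genes fell in NaJa-D. Rrp9, which had the largest fall in NaJa-G, went from 110.3, 88.8 and 92.4 CPM to 41.9 and 58.3 CPM (-0.96 ± 0.10), and Grwd1, a histone and ribosomal protein chaperone, changed by -0.87 ± 0.091. Rrp12 was among the 5 largest falls in each line, at -0.65 (NaJa-D), -0.39 (NaJa-F) and -0.73 (NaJa-G). Myc fell in NaJa-D (-0.45 ± 0.077, adjusted p = 3.32e-05) and did not pass the threshold in the other lines, with -0.25 ± 0.078 for NaJa-F (adjusted p = 0.0162) and -0.19 ± 0.086 for NaJa-G (adjusted p = 0.0767).

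With encorafenib, a comparison added after the data had been seen, the day 5 level was not lower in NaJa-G for most of the set. There 13 genes rose and 1 fell (14 called, background 41.0% in either direction, median 0.083). Of all 14107 genes, 2903 rose and 2876 fell there. Utp20 (0.53 ± 0.070), Gnl3 (0.42 ± 0.13) and Nop56 (0.38 ± 0.083) rose most and Bop1 fell (-0.37 ± 0.068). NaJa-D and NaJa-F had 18 and 14 genes called, all lower, with medians of -0.19 and -0.13. Of all 14107 genes, 2009 and 1741 were lower in these lines, and 26.7% and 22.5% were called in either direction. Dkc1 fell most in NaJa-D (-0.55 ± 0.057) and Bop1 in NaJa-F (-0.52 ± 0.076). Scaling by library size alone gave 11 lower and 2 higher in NaJa-D (Nhp2 and Nop10), 9 lower and 1 higher in NaJa-F (Utp20), and 1 lower and 19 higher in NaJa-G.

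**Figure D4:**
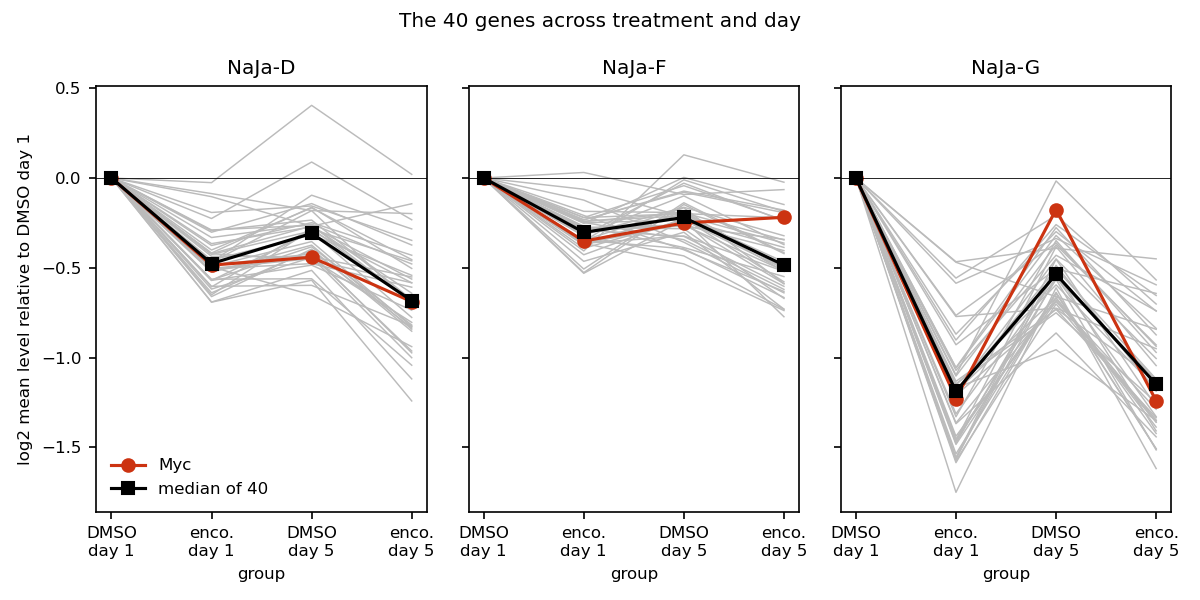
Log2 of the mean CPM relative to DMSO day 1 of the same line (vertical axis) in the 4 groups of each line (horizontal axis), with a grey line for each of the 40 genes, red for Myc and black for the median of the 40. In NaJa-G the black line drops at encorafenib day 1, comes up at DMSO day 5 below its start and drops again at encorafenib day 5.

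Without drug the 3 lines did not differ in 1 direction. Over the means of both days in DMSO, 17 genes had more RNA in NaJa-F than in NaJa-D (background, 32.6%) and 6 lower (29.0%), 12 had more in NaJa-G than in NaJa-D (33.3%) and 13 lower (34.1%), and 6 higher in NaJa-G than in NaJa-F (25.2%) and 15 lower (29.2%). The medians were 0.12, 0.0053 and -0.075. Scaling by library size alone gave 26 higher and 3 lower between NaJa-F and NaJa-D and 20 higher and 8 lower between NaJa-G and NaJa-D, where the all-gene medians became 0.14 and 0.13. Without the library with the conflicting label 18 genes were called between NaJa-F and NaJa-D and 22 between NaJa-G and NaJa-D. Myc in NaJa-G lay below its level in NaJa-D (-0.34 ± 0.058) and below that in NaJa-F (-0.24 ± 0.058), and its difference between NaJa-F and NaJa-D was -0.092 ± 0.054 (adjusted p = 0.135), or 0.030 with library size scaling. Without NaJa-G DMSO day 5 replicate 1 the value against NaJa-F was -0.15 (adjusted p = 0.0247).

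Gar1 differed most between NaJa-D and each of the other lines, with 32.0, 32.0 and 31.5 CPM in NaJa-D, 54.4, 52.2 and 52.9 CPM in NaJa-F and 61.6, 60.4 and 59.0 CPM in NaJa-G in DMSO on day 1. NaJa-F and NaJa-G thus lay above every NaJa-D library, by 0.71 ± 0.043 and 0.73 ± 0.046 over both days. After encorafenib on day 1 the NaJa-G libraries, at 21.5, 21.8 and 21.8 CPM, were below those of NaJa-D, at 25.0, 25.5 and 27.0 CPM. Nop56 was lower in NaJa-F (-0.46 ± 0.062) and NaJa-G (-0.51 ± 0.065) than in NaJa-D, and Noc4l, a small subunit export factor, was lowest in NaJa-G (-0.58 ± 0.043 and -0.50 ± 0.044). Utp4 in NaJa-G exceeded its level in NaJa-D (0.42 ± 0.035) and NaJa-F (0.43 ± 0.035).

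Per length, the level of these genes spanned a wide range. In CPM per kilobase of exon in NaJa-D DMSO day 1, Npm1 was highest at 421, followed by Mybbp1a at 179.9, Ncl at 174, Nhp2 at 124 and Nop56 at 119.5. Myc stood at 92.4, and Wdr12 was lowest at 5.72. In NaJa-G DMSO day 1 Npm1 was at 642, Ncl at 205, Mybbp1a at 160.0, Myc at 66.9 and Wdr12 at 6.26. Exonic length is the union of all annotated exons of a gene, and the order given here depends on it. The length was 10188 bases for Ncl and 11955 for Wdr12, against 2665 for Npm1. In CPM without this division, Ncl lay above Npm1 in NaJa-D DMSO day 1, at 1877, 1637 and 1800 against 1188, 1049 and 1129. Wdr12, at 71.0, 65.1 and 69.0 CPM, lay above Gar1, at 32.0, 32.0 and 31.5 CPM.

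The 10 genes with an E-box window printed above and the 24 without one had overlapping ranges of change. In NaJa-G on day 1 their median log2 fold changes were -1.26 and -1.18, with ranges of -1.56 to -0.47 and -1.75 to -0.56. The medians in NaJa-D were -0.54 and -0.48 on day 1 and -0.36 and -0.35 on day 5. In NaJa-F they were -0.32 and -0.30 on day 1 and -0.25 and -0.26 on day 5, and in NaJa-G on day 5 -0.57 and -0.60, so the order was not the same in every comparison. In NaJa-G on day 1, Ltv1 had the smallest and Mybbp1a the largest change among the genes with the motif.

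Further genes of the same processes that are not among the 40 were counted from lists chosen by function. The order is NaJa-D day 1 and day 5, NaJa-F day 1 and day 5, and NaJa-G day 1 and day 5. Of all genes, 21.2%, 14.7%, 12%, 8.50%, 28.7% and 24.7% fell in this order, and 9.70% to 35.3% rose. Of 22 other small subunit processome genes, 18, 12, 11, 4, 22 and 19 fell and none rose. In NaJa-G on day 1 their median was -0.70, with Utp14a (-1.15 ± 0.077) and Wdr46 (-1.15 ± 0.078) lowest. Of 22 other large subunit assembly genes, 18, 12, 14, 6, 22 and 18 fell and none rose, and Nle1 (-1.67 ± 0.11) and Noc2l (-1.50 ± 0.045) were lowest in NaJa-G on day 1. Of 9 further polymerase I genes, 4, 1, 1, 2, 8 and 5 fell. A count of 1 of 9 is below the share of all genes that fell in NaJa-D on day 5 and NaJa-F on day 1 (14.7% and 12%). In NaJa-G on day 1 Taf1d (-1.51 ± 0.22) and Taf1a (-1.19 ± 0.21) were lowest. The names Polr1f, Polr1g and Polr1h were not analysed here.

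Of 12 known MYC targets outside ribosome biogenesis, 11, 7, 7, 4, 11 and 10 fell and none rose. Of all genes, 21.2%, 14.7%, 12%, 8.50%, 28.7% and 24.7% fell. Cad, which starts pyrimidine synthesis, changed by -1.68 ± 0.071 and Hspd1, a mitochondrial chaperone, by -1.51 ± 0.066 in NaJa-G on day 1. Of the 10 measured genes of the MYC partner network, 1, 2, 2, 1, 2 and 1 were lower and 1, 1, 2, 2, 4 and 2 higher in the same order. These counts are near the shares of all genes, 8.50% to 28.7% lower and 9.70% to 35.3% higher over the 6 comparisons. Mxd4, a MAX partner that represses transcription, rose in all 6 comparisons, in NaJa-D by 1.80 ± 0.077 on day 1 and 1.12 ± 0.061 on day 5. For NaJa-F its values were 0.99 ± 0.061 and 0.45 ± 0.064, and for NaJa-G 2.74 ± 0.058 and 0.74 ± 0.059. Mycl, a MYC paralog, rose in NaJa-F (0.55 and 0.54) and NaJa-G (1.28 and 1.55). Max changed by -0.055 ± 0.059 in NaJa-G on day 1 (adjusted p = 0.415).

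Drug action and other cell types were checked beside these results. The ERK-dependent genes Spry4, Etv4, Etv5 and Dusp6, at 364 to 396 CPM in sum in NaJa-G DMSO day 1, stood at 65.8 to 70.8 CPM with encorafenib, and in NaJa-D at 250 to 257 CPM against 131 to 146 CPM. All of them fell in every line on day 1 and in NaJa-G on day 5. On day 5 Spry4, Etv4 and Etv5 fell in NaJa-D and NaJa-F too, but Dusp6 passed in neither line, at 99.4 to 101 CPM in DMSO and 100.4 to 104 CPM with encorafenib in NaJa-D. Single epithelial markers changed with encorafenib in both directions. In NaJa-D on day 1, 3 of the 10 were lower and 5 higher (21.2% and 23.7% of all genes). There Cdh17, an intestinal cadherin, went from 56.0 to 61.3 CPM down to 4.92 to 7.26 CPM, and the keratin gene Krt19 from 903 to 997 CPM up to 1763 to 2284 CPM. Cdx2, an intestinal transcription factor, stood at 8.92 to 8.93 CPM in NaJa-G DMSO day 5 and at 1.14 to 1.45 CPM with encorafenib. Of 8 fibroblast markers 6 were in the table (Lum and Fap were not analysed here). With encorafenib 2 to 5 of these 6 markers rose, against 9.70% to 35.3% of all genes. Their summed level in NaJa-G was 57.6 to 78.0 CPM in DMSO and 95.6 to 112 CPM with encorafenib on day 1, and 20.2 to 22.9 CPM and 121 to 137 CPM on day 5. In NaJa-D and NaJa-F it did not exceed 9.11 CPM in any library. Csf1r, the only leukocyte marker in the table, rose in all 6 comparisons and did not exceed 4.30 CPM. The part of these markers in the fall of the 40 genes was not tested.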

How the data were processed

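RNA of 34 libraries was sequenced. Per the labels and methods, the authors trimmed reads with Trimmomatic 0.39, aligned them to GRCm38 with STAR 2.5.2b and kept genes with a summed count above 2. The program that counted reads, its annotation and its use of strand are not given in the sources used here. The deposited table holds raw read counts for each gene. Total counts ran from 46007050 to 80121299 per library.

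All 14107 genes were fitted in 1 model of 12 group means with voom and limma 3.58.1 (R 4.3.3) after TMM scaling (edgeR 4.0.16), and calls used a two-sided p below 0.01 after Benjamini-Hochberg adjustment over the whole table. CPM, the count of a gene scaled to a common library size, used TMM-scaled totals. Since CPM is relative to the rest of a library, no value here measures RNA per cell. Differences between lines or days in the response were contrasts of the same model. The 40 genes and the other lists were chosen with earlier results of these data known. All 40 may be named, and for each comparison the 5 largest called changes in each direction were named. Of the other lists, at most 2 genes at each end of the called values, MYC network genes and checks of the drug were named. Alternatives were edgeR's quasi-likelihood test, DESeq2 1.42.0, RLE or library size scaling, filterByExpr, a replicate block, a fit of only the groups compared, an adjusted p below 0.05 and leaving out each library. The comparisons of days in encorafenib were added after seeing the data. The fit was tested on simulated data. No table of the authors' own comparisons was used.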

Additional observations from a re-analysis of the deposited data

Results flagged for a closer look

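Each value here is a difference of log2 fold changes to encorafenib between lines or days that passed the test of the difference itself in limma (adjusted p below 0.01), and the comparisons share libraries. Between NaJa-G and NaJa-D on day 1 it passed for 37 of the 40 genes, among them Gnl3 (-1.40), Ppan (-1.32), Gar1 (-1.17), Nop56 (-1.09), Nolc1 (-1.08) and Myc (-0.74). On day 5 it passed for 12, among them Myc (-0.81), Gar1 (-0.66), Nhp2 (-0.49), Utp4 (-0.47) and Npm1 (-0.46). Of these, Nhp2 lost the call with RLE scaling and in most fits with 1 library left out. Its value was -0.37 without NaJa-G DMSO day 5 replicate 3.

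Between NaJa-G and NaJa-F it passed for 40 genes on day 1, with Polr1b (-1.36), Gar1 (-1.23), Dkc1 (-1.22), Nolc1 (-1.20), Npm1 (-1.17) and Myc (-0.88). On day 5 it passed for 17, with Myc (-1.08), Gar1 (-0.74), Polr1b (-0.73), Npm1 (-0.54) and Dkc1 (-0.53). Between NaJa-F and NaJa-D, 8.79% of all 14107 genes differed in either direction on day 1 and 8.85% on day 5. Of all genes, 633 and 575 had a higher response in NaJa-F. In the set, 3 genes differed on day 1, Nop10 (0.41), Dkc1 (0.33) and Polr1b (0.30). On day 5 it passed for 3, Bop1 (-0.41), Dkc1 (0.33) and Polr1b (0.33). With 1 library left out the counts ran from 1 to 17 and from 0 to 7, and Nop10, Dkc1 and Bop1 lost the call in most of these fits.

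In NaJa-G 36 genes answered differently on day 5 than on day 1 (15.5% of all genes with a higher response). Nolc1 (0.92), Nop56 (0.86), Ncl (0.84), Rrp12 (0.81) and Grwd1 (0.79) shifted most. In NaJa-D 2 passed, Nhp2 (0.49) and Rrn3 (0.38), both with a higher response. Of all 14107 genes, 7.29% passed there in either direction and 389 with a higher response. Nhp2 lost the call with edgeR, RLE scaling, the replicate block and only the groups compared, and in most fits with 1 library left out. Rrn3 lost it with only the groups compared and in some of those fits. With 2 or 3 libraries in a group, single libraries were not tested as outliers.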

How the results depend on the processing

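Of 396 counts of called genes under an alternative, 343 stayed within 1.5 times the reported count. For single genes, 144 results were followed, those of Myc and of the 5 largest called changes per direction and comparison. Apart from Myc, they were chosen for large called changes. They do not measure how stable the other genes of the set were. Of their 2234 values under an alternative, 2128 kept their direction and side of the threshold and 91 lost the call. Another 7 gained a call and 8 changed sign, all 8 for Myc where it was not called. The causes were not tested, except that a fit of only the groups compared uses fewer libraries.

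For the difference of NaJa-F from NaJa-D, day 1 gave 6 genes with DESeq2, 0 with library size scaling, 1 with only the groups compared, 10 at an adjusted p below 0.05 and 1 to 17 with a library left out. Day 5 gave 6, 1 and 9 with DESeq2, only the groups compared and 0.05, and 0 to 7 with a library left out. On day 5 NaJa-G against NaJa-D gave 7 with only the groups compared and 20 at 0.05, and NaJa-G against NaJa-F 28 with library size scaling and 30 at 0.05. The difference between days in NaJa-D gave 1 with edgeR, RLE scaling or the replicate block, 0 with only the groups compared, 6 at 0.05 and 0 to 11 with a library left out. In NaJa-F it gave 1 with DESeq2, 2 at 0.05 and 0 to 1 with a library left out.

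Encorafenib in NaJa-F on day 5 gave 10 to 17 genes with a library left out. Day 5 against day 1 in DMSO gave 13 in NaJa-F with library size scaling and 21 in NaJa-G with only the groups compared. In encorafenib it gave 10 in NaJa-D and 22 in NaJa-G with only the groups compared, and 9 to 11 in NaJa-G with a library left out.

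Myc reversed sign under library size scaling between NaJa-F and NaJa-D in DMSO (0.030) and between days in encorafenib in NaJa-G (0.061). With a library left out its value ran from -0.15 to 0.17 for encorafenib in NaJa-F on day 5, from -0.014 to 0.36 for the difference between days in NaJa-G, from -0.37 to 0.0001 between days in DMSO in NaJa-G, from -0.065 to 0.25 for NaJa-F between days in encorafenib and, for NaJa-G, from -0.038 to 0.0055.

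Replicate numbers recur across groups, but in 16 pairs of same-numbered libraries the deviations correlated at -0.156 to 0.215, above 0.1 in 3, so the numbers were not taken as pairs. The replicate block moved no count by over 1.5 times other than that of the difference between days in NaJa-D, given above.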
